A study of Mus musculus with 6 samples.

Results

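The untreated state described here is that of mouse small-intestinal organoids that received only the solvent dimethyl sulphoxide (DMSO), and it rests on every library labelled as such, 3 of the 6 libraries of the series. The organoids are epithelial cultures that form crypt-like buds and villus-like walls in a dish. They were grown for 96 h from single cells, until crypt and villus structures had emerged, and then spent 24 h in the amount of DMSO that matched the other arm, which received 5 uM of the compound NIBR-LTSi and is not compared here. All genes of the deposited count table were used. Messenger RNA libraries were made with a stranded kit from 200 ng of total RNA, after the organoids had been digested to single cells. The labels give no mouse strain, no organoid line and no passage, and do not state from which cultures the 3 replicates came, so the spread between them may be technical.

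The small-intestinal epithelium is renewed from stem cells at the crypt base, whose progeny divide in the crypt and then become absorptive enterocytes or secretory cells. Enterocytes digest and take up nutrients through a brush border of microvilli. Of the secretory cells, goblet cells release mucus, Paneth cells release antimicrobial proteins beside the stem cells, enteroendocrine cells release hormones, and tuft cells sense luminal signals. Each type has marker transcripts: Fabp1, a fatty acid binding protein of enterocytes; Muc2, the gel-forming mucin of goblet cells; Lyz1, the lysozyme of Paneth cells; Chga, a granule protein of enteroendocrine cells; Olfm4, a secreted protein of crypt base stem cells; and Mki67, a nuclear protein of dividing cells. In bulk RNA of this kind, fewer cells of a type and less RNA per cell cannot be told apart.

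The promoter sequences of these 6 markers are shown first, with that of Reg1, another transcript of very high level per length, and that of Rps15, a ribosomal protein gene of high level, because promoters of the most abundant transcripts differed in CpG content from those of most expressed genes. They are RefSeq sequences of build GRCm38.p6 (mm10) and run from 50 bases before the annotated start of transcription to 10 bases from it, 60 bases each, on the strand of the gene. Capitals mark the string TATAAA, the string TATATA or the shorter string TATAA where it began 40 to 20 bases before the start.
Fabp1: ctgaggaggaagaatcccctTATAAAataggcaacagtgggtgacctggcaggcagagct
Reg1: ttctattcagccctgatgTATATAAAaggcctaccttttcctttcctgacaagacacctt
Muc2: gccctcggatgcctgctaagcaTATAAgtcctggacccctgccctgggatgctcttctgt
Olfm4: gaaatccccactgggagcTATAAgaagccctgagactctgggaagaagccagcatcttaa
Lyz1: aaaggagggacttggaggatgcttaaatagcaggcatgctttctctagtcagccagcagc
Chga: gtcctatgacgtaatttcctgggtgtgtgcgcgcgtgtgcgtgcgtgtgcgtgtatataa
Mki67: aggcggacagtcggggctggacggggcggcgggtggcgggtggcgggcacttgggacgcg
Rps15: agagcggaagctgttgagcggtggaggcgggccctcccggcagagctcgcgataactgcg
The Fabp1 stretch lies at chr6:71199829-71199888 on the plus strand and the Mki67 stretch at chr7:135716370-135716429 on the minus strand. The Mki67 stretch lies wholly within the gene span given for it below, so the start used for it is not the outer end of that span. Fabp1 and Reg1 held TATAAA at position -30, counted from the start, and in Reg1 it overlapped TATATA. Muc2 and Olfm4 held the shorter TATAA, at -28 and -32. Lyz1, Chga, Mki67 and Rps15 held none of the 3 strings in that window, and the letters tatataa at the end of the Chga stretch lie outside it.

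The whole promoters of Fabp1, the most abundant transcript per length, and of Mki67, a transcript of dividing cells, show a second difference, in CpG dinucleotides, which are in capitals. Both run 250 bases before to 50 bases after the start, 300 bases in all.
Fabp1: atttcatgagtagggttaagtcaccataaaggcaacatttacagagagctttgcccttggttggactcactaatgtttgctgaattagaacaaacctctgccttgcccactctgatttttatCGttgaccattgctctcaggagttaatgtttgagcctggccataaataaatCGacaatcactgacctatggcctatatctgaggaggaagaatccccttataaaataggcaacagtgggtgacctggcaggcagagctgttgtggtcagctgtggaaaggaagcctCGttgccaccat
Mki67: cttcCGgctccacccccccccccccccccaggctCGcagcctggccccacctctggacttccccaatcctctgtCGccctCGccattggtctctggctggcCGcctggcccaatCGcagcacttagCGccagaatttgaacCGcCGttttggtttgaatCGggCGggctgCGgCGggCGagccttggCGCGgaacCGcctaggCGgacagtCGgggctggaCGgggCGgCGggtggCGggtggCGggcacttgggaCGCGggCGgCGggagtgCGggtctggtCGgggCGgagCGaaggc
The Fabp1 promoter (chr6:71199629-71199928, plus strand) held 3 CpG dinucleotides, 0.198 of the number expected from its content of C and G. The Mki67 promoter (chr7:135716330-135716629, minus strand) held 32, or 0.809 of expectation. The other 4 markers lay between and below these, with ratios of 0.136 for Lyz1, 0.250 for Olfm4, 0.268 for Muc2 and 0.764 for Chga.

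Among expressed genes, the share of promoters with a TATA string was larger at very high levels. Of the 24594 genes in the table, 18386 matched a promoter, and several genes had more than 1. TATAAA or TATATA, searched on the strand of the gene in the same window and counted once per promoter where the strings overlapped, was found in 2.74% of all 32851 promoters of that length, in 6.69% of those of genes with no count and in 1.71% of the 11821 promoters of genes with a mean of at least 1 CPM (counts scaled to a library total of 1000000). Among these expressed genes the share was 1.17% at 1 to 10 RPKM (CPM per 1000 bases of gene width), 1.67% at 10 to 100, 6.22% at 100 to 1000 and 20%, or 4 of 20 promoters, at 1000 RPKM or more. Expressed genes under 1 RPKM are in none of these bands, so the bands do not show a rise over the whole range. Of the 100 genes of highest RPKM, 75 matched a promoter, and 11 of their 90 promoters, 12.2%, held it. With TATAA as the only string that share was 7.78%, against 2.20% for genes of at least 1 CPM and 7.95% for genes with no count. The 100 highest thus exceeded the genes with no count under the first search and not under TATAA, while they exceeded expressed genes under both.

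CpG content was lower at the very highest levels than over expressed genes as a whole. The median observed over expected ratio was 0.758 for genes of at least 1 CPM. It was 0.382 for the 100 genes of highest RPKM and 0.231 for those of 1000 RPKM or more. In the bands of 1 to 10, 10 to 100 and 100 to 1000 RPKM it was 0.772, 0.778 and 0.690. For genes with no count the median was 0.209, so a low median was not particular to high levels. Among lists of genes it was low for antimicrobial genes of the villus base (0.101), proximal small-intestinal genes (0.142), Paneth genes (0.147) and enterocyte nutrient genes (0.204), and high for proliferation genes (0.935), cytosolic ribosomal proteins (0.870) and respiratory chain subunits (0.833). TATAAA or TATATA stood in 3 of 10 Paneth and 3 of 11 villus base promoters. Either string stood in 0 of 24 proliferation and 0 of 82 respiratory chain promoters. Either also stood in 3 of 16 housekeeping and 4 of 72 ribosomal protein promoters, and in 0 of 13 crypt base and 0 of 8 villus tip promoters. With TATAA as the only string, the counts were 1 of 13 for crypt base and 2 of 8 for villus tip promoters. They stayed at 0 for proliferation and respiratory chain promoters. These are descriptions of letters in a window and not of bound factors.

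The libraries held 25238809, 18395427 and 21503743 counts in DMSO replicates 1 to 3. In all, 17259 genes had at least 1 count and 7335 had none, so that a mean up to 0.0461 CPM (3 counts over the 3 libraries, counting error only) remains possible for the latter. At least 1 CPM was reached by 11497, 11538 and 11622 genes in the 3 libraries and by 11269 genes in all of them, while 626 genes reached it in only 1 or 2. The median expressed gene, among the 11547 with a mean of at least 1 CPM, stood at 30.2 CPM and 6.83 RPKM. Above it the range was wide, with 2237 genes at 100 CPM or more and 100 genes at 1000 CPM or more. The 10 genes of highest CPM held 7.56% ± 0.0732 of all counts (SD, n = 3), the top 100 held 23.3% ± 0.224 and the top 1000 held 56.3% ± 0.369.

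Per length, genes of nutrient absorption led the transcriptome. Fabp1, which binds fatty acids inside the enterocyte, stood at 12993, 13731 and 12631 RPKM in replicates 1 to 3 and took 3.88% of summed RPKM. Reg1, a secreted lectin of the regenerating islet family, stood at 4266, 4482 and 4136 RPKM. For both genes replicate 2 was the highest and replicate 3 the lowest library, and their ranges overlapped neither each other nor those of the genes below.

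Apolipoproteins followed, with Apoa4 at 3405 ± 84.5 RPKM and Apoa1 at 3239 ± 112 (SD, n = 3), ranges that overlapped each other. From Eef1a1, the elongation factor of translation (2508, 2588 and 2513 RPKM), to Sis, the sucrase-isomaltase of the brush border (2137 ± 92.4 RPKM), each gene overlapped the next in range. Between them stood Prap1, a proline-rich acidic secreted protein; Rbp2, which binds retinol; Adh1, an alcohol dehydrogenase; and Fabp2, the second fatty acid binding protein of enterocytes. The galectins Lgals6, Lgals4 and Lgals2 followed, all with means between 1892 and 2038 RPKM, with Lypd8, an antibacterial surface protein, at 1977 ± 109 RPKM. Lgals4 and Lgals6 are close relatives, so that the split of reads between them is uncertain. Smim24, the disulphide isomerase P4hb, the elongation factor Eef2 and the ribosomal protein Rplp1 were also among the first 20.

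**Figure D1:**
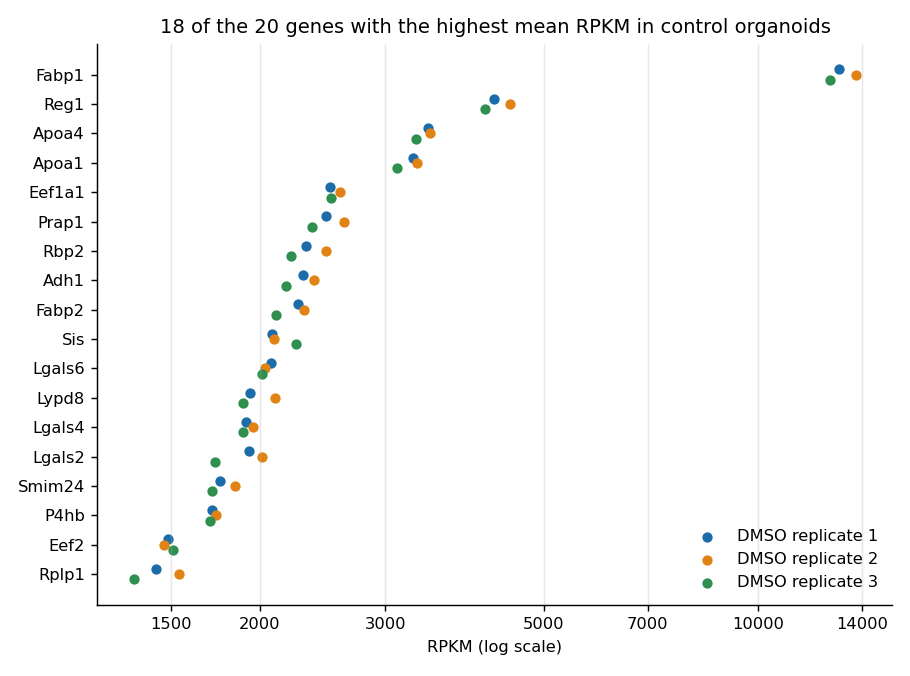
RPKM on a log axis for 18 of the 20 genes with the highest mean RPKM, 1 point per DMSO library. Fabp1 and Reg1 stand apart from each other and from the rest, while the ranges from Eef1a1 to Sis overlap from gene to gene.

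Ranked by counts alone, without length, long transcripts moved up. Sis stood at 13765 ± 595 CPM and Fabp1 at 7255 ± 310 CPM (SD, n = 3), the reverse of their order per length. Pigr, the receptor that carries immunoglobulin A across the epithelium, stood at 4696 ± 186 CPM, and Mttp, which loads lipid onto apolipoprotein B, at 3991 ± 84.4 CPM. Slc5a1, the sodium-coupled glucose transporter, Scd2, a fatty acid desaturase, and Tkfc, a triokinase of fructose metabolism, were also among the first 20. Fth1, the ferritin heavy chain, closed them at 2439 ± 153 CPM.

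The 6 markers were all found, at very different levels. Fabp1 (Entrez 14080, chr6:71199879-71205034) had 7185, 7593 and 6985 CPM in replicates 1 to 3 and was first of all genes by RPKM. Lyz1 (chr10:117287795-117292868) had 61.3, 67.5 and 64.4 CPM, a mean of 51.0 RPKM and rank 1108. Muc2 (chr7:141690340-141754691) had 158, 151 and 175 CPM, a mean of 24.2 RPKM and rank 2311. Lyz1 was thus lower than Muc2 in counts and higher per length, its gene width being 1263 bases against 6680.

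Chga (chr12:102554941-102565027) had 57.6, 55.1 and 54.6 CPM, a mean of 20.2 RPKM and rank 2682. Mki67 (chr7:135689784-135716450) had 99.4, 87.8 and 131 CPM, a mean of 10.5 RPKM and rank 4438. Olfm4 (chr14:80000302-80023141) had 17.6, 17.6 and 16.4 CPM, a mean of 4.94 RPKM and rank 6805. Per length the order was Fabp1, Lyz1, Muc2, Chga, Mki67 and Olfm4, and no neighbours in it overlapped in range over the 3 libraries. The RPKM of Fabp1 was 5.90-fold that of Fabp2, 1246-fold that of Mki67 and 2655-fold that of Olfm4, while Muc2 was 1.19-fold Chga. Only Mki67 of the 6 had a coefficient of variation (CV) between libraries above 20%, at 20.9%, with replicate 3 the highest library.

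All 21 enterocyte genes of nutrient handling reached 1 CPM in every library, and together they held 53732 ± 973 CPM, 5.37% of the counts (SD, n = 3). The lipid genes among them included Mttp (905 RPKM), Dgat1, which makes triglyceride (292 RPKM), Apoc3 (167 RPKM) and Apob, the scaffold of chylomicrons (139 RPKM). Sugar uptake was represented by Slc5a1 (755 RPKM), the fructose transporter Slc2a5 (99.5 RPKM) and the facilitative transporter Slc2a2 (67.7 RPKM), and fructose use by the ketohexokinase Khk (563 RPKM). The peptide transporter Slc15a1 was the lowest of the list at 25.6 RPKM, above the median of expressed genes. Xenobiotic enzymes were present too, with Cyp3a11 at 236 RPKM, Cyp2b10 at 171 RPKM and Gsta1 at 642 RPKM. Cps1, the first enzyme of the urea cycle, stood at 193 RPKM.

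Of 19 brush border genes 18 reached 1 CPM in every library, with a summed level of 27745 ± 1164 CPM. Sis led, and Alpi, the intestinal alkaline phosphatase, stood at 666 RPKM, the aminopeptidase Anpep at 421 RPKM and Vil1, the villin that bundles microvillar actin, at 375 RPKM. Myo1a, the motor that ties actin to the microvillar membrane, had 357 RPKM, and the adhesion proteins Cdhr5 and Cdhr2 had 310 and 174 RPKM. Lct, the lactase, was low for this group at 8.31 RPKM, against 216 RPKM for the trehalase Treh. The exception was Tmprss15, the enteropeptidase that activates trypsinogen, at 0.476, 0.109 and 0.233 CPM. It was near the 3-count floor of each library, 0.119 to 0.163 CPM.

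Antimicrobial genes of the villus base reached 1 CPM in 9 of 10 cases and summed to 9000 ± 380 CPM. Besides Reg1 and Lypd8 they included Reg3a at 914 RPKM, Reg3b at 180 RPKM and Reg3g at 106 RPKM, secreted lectins whose similar sequences leave the split of their reads uncertain. Ccl25, a chemokine of the small intestine, had 339 RPKM. The oxidase Duox2 had 2.99 CPM and the nitric oxide synthase Nos2 0.811 CPM, levels far under the lectins. Genes of the villus tip were less uniform: 6 of 8 reached 1 CPM, led by the transcription factor Creb3l3 (204 RPKM) and the cell cycle inhibitor Cdkn1a (65.1 RPKM), while Nt5e and Slc28a2 had 0.848 and 0.895 CPM. Ada, the adenosine deaminase of the tip, had 9.90 CPM.

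All 18 goblet genes reached 1 CPM in every library and summed to 3484, 3387 and 3710 CPM. Fcgbp, a large protein of the mucus gel, carried much of this with 1664, 1514 and 1945 CPM. Per length the small secreted proteins led, with the trefoil factor Tff3 at 551 RPKM, Spink4 at 439 RPKM, the uroguanylin gene Guca2b at 364 RPKM and the lectin Zg16 at 239 RPKM. Agr2, which folds mucins, had 100.5 RPKM, and Clca1, a mucus protease, 61.0 RPKM. The factors that specify the lineage were low: Atoh1, the master factor of secretory fate, had 3.55 CPM and Spdef 7.36 CPM.

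Paneth genes were split between a few high members and many near 0. Of 24 listed, 15 had a mean of at least 1 CPM, and the sum was 646 ± 31.8 CPM. The alpha-defensin Defa24 (522 RPKM), the lectin Itln1 (238 RPKM), Lyz1 and Defa30 (43.3 RPKM) led. Ang4, a microbicidal ribonuclease, had 13.7 CPM, and Mmp7, the protease that activates defensins, 11.2 CPM. Defa5 and Pla2g2a had no count, and Defa20, Defa21 and Defa22 were at 0.0442, 0.231 and 0.0857 CPM. Alpha-defensins are near-identical copies, so their single levels are uncertain. Lyz1 was 90.8-fold above its close copy Lyz2 per length, a ratio with the same limit. Wnt3, the Wnt ligand of Paneth cells, had 0.472 CPM.

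Of 30 enteroendocrine genes 27 had a mean of at least 1 CPM, and the sum was 873, 906 and 868 CPM. Gip, the incretin of K cells, was the highest hormone at 94.3, 98.7 and 91.6 CPM and led the list at 138 RPKM. The granule protein Chgb followed at 109 RPKM. Ddc, the decarboxylase of monoamine synthesis, had 41.7 RPKM, but enterocytes are known to express it too. Other hormones were Cck, cholecystokinin, at 53.2 CPM; Gcg, the glucagon precursor, at 35.1 CPM; Ghrl, ghrelin, at 21.6 CPM; Sst, somatostatin, at 17.9 CPM; and Tac1, the substance P precursor, at 12.7 CPM. Pyy, a hormone of distal L cells, was at 0.317, 0 and 0.279 CPM. Tph1, the enzyme of serotonin synthesis in enterochromaffin cells, had 8.41 CPM, and Neurog3, the factor of endocrine progenitors, 1.82 CPM.

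Crypt base markers were present at low levels. Of 18 listed, 15 reached 1 CPM in every library, and they summed to 679, 668 and 682 CPM, a narrower spread than in the other lineage lists above. Hopx (26.2 RPKM), Prom1 (22.4 RPKM), Lrig1 (19.7 RPKM) and Smoc2 (17.8, 18.6 and 17.7 RPKM) were the highest. Lgr5, the receptor that defines cycling crypt base cells, had 3.33, 3.32 and 2.37 CPM, lowest in replicate 3. Ascl2, a transcription factor of those cells, had 4, 1 and 2 counts, and Tnfrsf19 had no count. Axin2, a target of Wnt signalling, had 5.75 CPM. Some listed markers, such as Hopx and Lrig1, are not restricted to stem cells.

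Transcripts of dividing cells were all detected: 29 of 29 reached 1 CPM in every library and summed to 1138, 1138 and 1174 CPM. The replication clamp Pcna stood at 105.6, 109 and 99.3 CPM and led the list at 43.6 RPKM. Ccnd2, a D-type cyclin, followed at 31.5 RPKM, then the mitotic activator Cdc20 at 19.7 RPKM and the chromatin protein Hmgb2 at 19.2 RPKM. Top2a, the topoisomerase of mitotic chromosomes, had 89.4, 83.3 and 96.7 CPM. Of the 29 genes 16 were highest in replicate 2, 8 in replicate 1 and 5 in replicate 3. The high Mki67 of replicate 3 was thus not shared by most of the list. Their median width was 3997 bases. Of all genes of at least 10 CPM that were 2001 to 4000 bases wide, 51.5% were highest in replicate 2 and 14.9% in replicate 3. The split of the list was near that of genes of like width.

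Tuft and M cell transcripts were scarce. Of the 18 tuft genes with a row, 5 had a mean of at least 1 CPM, led per length by Ltc4s (4.50 RPKM), and the sum was 13.8 ± 0.792 CPM. Il25, Gnat3 and Chat had no count, Dclk1 had 1.05 CPM and the tuft master factor Pou2f3 0.488 CPM. Of 9 M cell genes 6 reached 1 CPM, but Gp2, the M cell uptake receptor, had no count and the lineage factor Spib had 0.572 CPM. The highest of that list, Pglyrp1 at 68.7 CPM, is not restricted to M cells.

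Markers of fetal and regenerating epithelium were mixed. Of 16 genes 11 had a mean of at least 1 CPM, with a sum of 199 ± 4.71 CPM, of which Krt7, a simple epithelial keratin, gave 108 CPM. Spp1, a secreted phosphoprotein on the list, had no count, and Ly6a, a marker of repair, had 1.12 CPM. Clu, the marker of revival stem cells, had 16.1 CPM. The growth factor Areg had 13.4 CPM and Ereg 0.707 CPM.

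**Figure D2:**
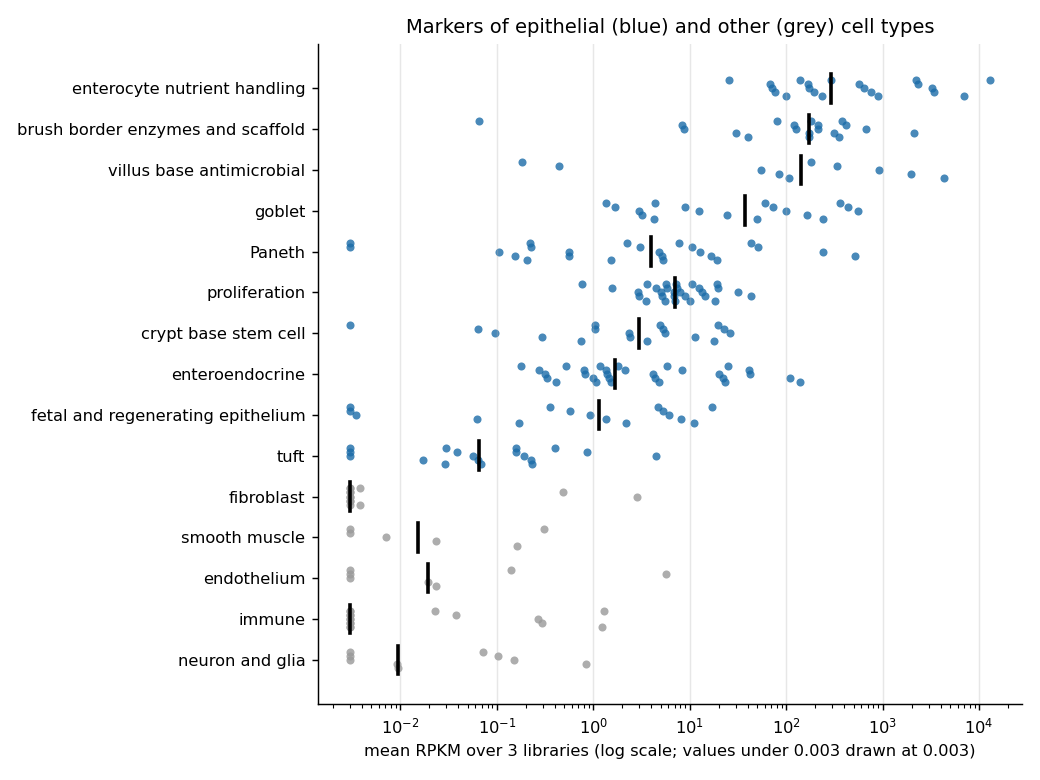
Mean RPKM of each listed gene on a log axis, with a black bar at the list median; genes under 0.003 RPKM are drawn at 0.003. Enterocyte, brush border and villus base genes lie highest, with medians of 292, 174 and 143 RPKM, against 37.0 for goblet, 7.04 for proliferation, 3.95 for Paneth and 1.66 for enteroendocrine genes.

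Markers of epithelium were abundant and those of other tissues scarce. The general epithelial genes Epcam, Cdh1, Krt8, Krt18, Krt19, Cldn7 and Krt20, listed after values had been seen, stood between 182 and 1105 RPKM. Krt20 had first been listed with genes of other organs. Over 5 lists of fibroblast, smooth muscle, endothelial, immune and neural genes, 51 in all, 7 had a mean of at least 1 CPM and 22 had no count. Their summed level was 45.6, 45.4 and 46.7 CPM in replicates 1 to 3. Lyve1 (16.5 CPM), Itgam (7.76 CPM), Vim (6.58 CPM), Ret (5.70 CPM) and Pdgfrb (2.66 CPM) made up most of it. Other listed markers of those cell types, picked with their values in view, were at or near 0. Dcn, Cdh5, Cd3e, Sox10 and Des had no count, Ptprc had 0.0310 CPM and Col1a1 0.0132 CPM.

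Transcripts listed for the proximal and for the distal small intestine were both present. Their median levels were 10.4 RPKM for the proximal and 16.5 RPKM for the distal list, and their sums 3710 and 1064 CPM. Of 13 proximal genes 12 reached 1 CPM in every library, led by the carboxylesterase Ces2e at 822 RPKM, with the factor Gata4 at 293 CPM, the iron exporter Slc40a1 at 96.5 CPM and the duodenal factor Pdx1 at 20.5 CPM. The proximal list also held low members, among them Tmprss15, under 1 CPM in every library, and Lct, both described above. Of 13 distal genes 10 had a mean of at least 1 CPM. A mean of at least 10 CPM was reached by 8 distal and 10 proximal genes. Among the low members of the distal list, the bile acid binding protein Fabp6 had 0.0517 CPM, the hormone Fgf15 0.653 CPM and the bile acid transporter Slc10a2 1.03, 0.761 and 1.21 CPM. Guca2b (317 CPM) and Ggt1 (336 CPM) were higher, and neither is restricted to the ileum. The distal genes Slc51a (52.9 CPM) and Osr2 (34.6 CPM) were also well above those low members. Of 13 colon genes with a row 8 reached 1 CPM, led by the cytochrome Cyp2c55 (64.8 CPM), while Car1, Hoxb13 and Hoxd13 had no count.

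Of transcription factors of the intestinal epithelium, 39 of 43 reached 1 CPM in every library. Isx, which restrains vitamin A uptake, stood at 209 RPKM, Creb3l3 at 204 RPKM, and the nuclear receptors Hnf4a and Hnf4g at 197 and 184 RPKM. The caudal factors that define intestinal identity, Cdx1 and Cdx2, had 129.5 and 70.5 RPKM. Vdr, the vitamin D receptor, had 104 RPKM and Klf5, a factor of crypt cells, 100.9 RPKM.

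Receptors of growth signals were widely expressed and most of their mesenchymal ligands were not. Of 43 receptor genes 33 had a mean of at least 1 CPM. The neuregulin receptor Erbb3 (569 CPM), the Wnt receptor Fzd5 (544 CPM) and Erbb2 (239 CPM) led in counts, and Fzd10, Lgr6, Erbb4 and Bmpr1b had no count. Egfr, the receptor of epidermal growth factor, had 19.5 CPM. Of 26 ligands of epithelial origin 16 had at least 1 CPM, led in counts by Pdgfa (144 CPM), the EGF family member Hbegf (140 CPM) and the hedgehog ligand Ihh (114 CPM). Egf itself had 0.278 CPM. Of 19 ligands listed for the mesenchyme 2 reached 1 CPM, Bmp3 at 191 CPM and Wnt4 at 3.83 CPM, and 11 had no count, among them the R-spondins Rspo1, Rspo2 and Rspo3 and the BMP antagonists Nog and Grem1.

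General programmes of metabolism and translation were high. The 22 cholesterol synthesis genes summed to 6779 ± 32.3 CPM, led by Insig1, a sterol sensor of the endoplasmic reticulum, at 306 RPKM and the synthase Hmgcs1 at 159 RPKM. The 14 glycolysis genes summed to 11100 ± 216 CPM, led by Ldha at 699 RPKM. Gapdh stood low among them at 135, 82.8 and 109.5 CPM, with a CV of 23.8%. Since Gapdh has many near-identical pseudogene copies, its count is uncertain. The 82 cytosolic ribosomal protein genes of at least 1 CPM, out of 85 matched by symbol, carried 25526 ± 1082 CPM, and the 94 of 101 nuclear respiratory chain genes of at least 1 CPM stood in a list of 19960 ± 818 CPM. Of the 100 genes of highest RPKM, 18 were in the 12 epithelial lineage lists, 10 were ribosomal proteins and 4 were respiratory chain subunits.

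Immediate early and stress transcripts were found in these control libraries. The libraries were made after the organoids had been digested to single cells, and any effect of that step on these levels was not tested. Of 20 immediate early genes 18 reached 1 CPM in every library, with a sum of 4057, 3952 and 3851 CPM, and Fos (694 CPM), Egr1 (544 CPM) and Zfp36, which destabilises such messages (522 CPM), led in counts. The unfolded protein and integrated stress list was detected in full, 16 of 16, led by Atf4 at 227 RPKM and the chaperone Hspa5 at 193 RPKM. Heat shock genes reached 1 CPM in 10 of 12 cases, but the strictly inducible Hspa1a and Hspa1b had 0.618 and 2.17 CPM. Of 18 interferon-stimulated genes 9 had a mean of at least 1 CPM, and Ifi27l2b, at 344 CPM, gave most of their sum of 446 ± 18.7 CPM. Classical antiviral members were low, with Ifit1 at 1.14 CPM and Isg15 at 0.803 CPM.

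The 3 libraries resembled each other closely, with a median CV of 5.62% over the 11547 genes of at least 1 CPM, where counting error alone gives a median of 3.94%. At 10 CPM or more, 8589 genes, the medians were 4.56% and 3.10%. By level, the median CV was 12% at 1 to 10 CPM, 5.11% at 10 to 100 CPM, 3.46% at 100 to 1000 CPM and 2.69% above, and at that top level counting error accounts for 0.527%. An edgeR fit with no group term gave a common biological coefficient of variation of 5.93%. Pearson's r of log2 CPM across genes, which are not independent replicates, was 0.996, 0.997 and 0.994 for replicates 1 and 2, 1 and 3, and 2 and 3. The SD across genes of the log2 ratio was 0.13, 0.12 and 0.17 for the same pairs, so replicates 2 and 3 were the least alike. The chi-square per degree of freedom of their counts was 4.65 to 8.05, a check for a library deposited under more than 1 label, of which there was no sign.

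A CV above 20% was found for 717 of the 11547 genes of at least 1 CPM, 6.21%, and for 76 of the 8589 of at least 10 CPM, 0.885%. A highest library more than 1.5-fold above the lowest was found for 5.52% and 0.629%. Over the 12 lineage lists, 13 of 180 genes of at least 1 CPM passed 20%, to be read beside the 6.21% over all genes, and 3 of these, Apob, Mgam and Mki67, stood above 10 CPM. The other 10 were low transcripts such as Defa17 (5.23, 9.57 and 4.79 CPM) and Ern2, a goblet stress sensor (266, 106 and 215 counts). At the other end, Krt20, a keratin of differentiated epithelium, had 472, 472 and 472 CPM, a CV of 0.103% where counting error gives 0.996%. Csnk1a1, Pfkl and Por were also among the most even at 100 CPM or more, each under its counting error.

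**Figure D3:**
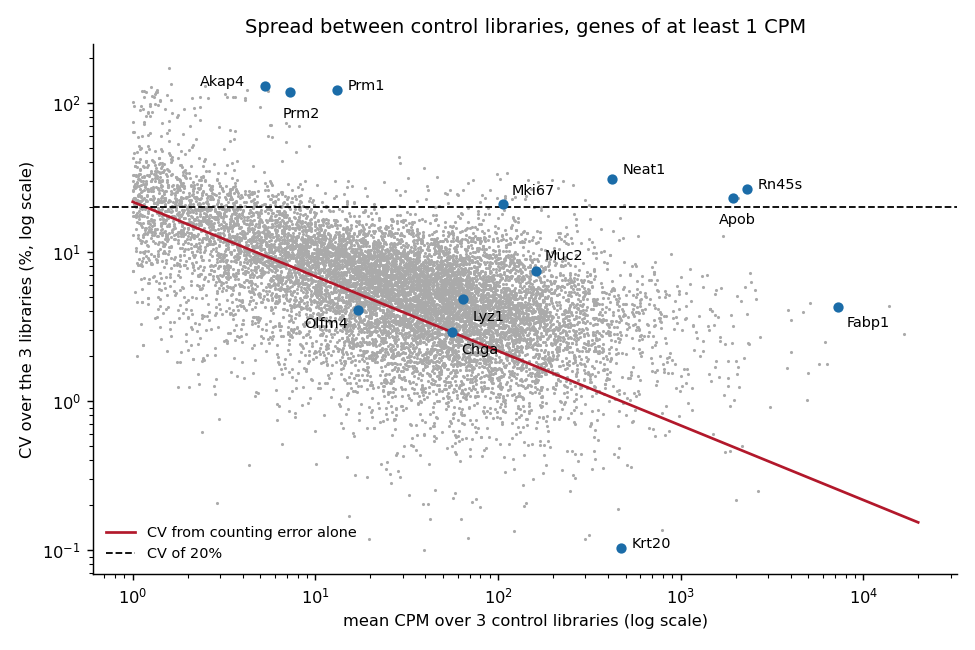
CV over the 3 control libraries against mean CPM, both on log axes, for genes of at least 1 CPM; the red line is the CV that counting error alone gives and the dashed line is 20%. The median CV falls with level, 5 of the 6 markers lie under 20%, and Prm1, Prm2 and Akap4 lie above 100%. The share of genes above 20% is 21.7% at 1 to 10 CPM, 0.803% at 10 to 100, 1.03% at 100 to 1000 and 3% above.

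Most of the variable genes of at least 10 CPM were very wide and highest in replicate 3. Of the 76, 58 were highest in replicate 3, and 55 of these 58 were wider than 8000 bases, a width that 16.4% of the 8589 genes exceed. The 76 had a median width of 14334 bases against 4430 for all. In 4 equal groups of the 8589 genes, from narrow to wide, 8.36%, 19.5%, 37.8% and 64.8% were highest in replicate 3. The endocytic receptor Lrp1 had 167, 160 and 267 CPM in replicates 1 to 3, and the giant cadherin Fat1 190, 187 and 307 CPM. Apob had 1691, 1680 and 2452 CPM, and the brush border glucoamylase Mgam 1798, 1792 and 2619 CPM. In all 4, replicates 1 and 2 were alike and replicate 3 stood above both. The cytoskeletal linkers Dst and Macf1, the kinase Hipk2, the methyltransferase Kmt2a and the epithelial linker Eppk1 were likewise highest in replicate 3, with CVs of 30.8% to 39.3%.

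Among the 8589 genes of at least 10 CPM, the libraries deviated by width. Expressed as log2 of a library's CPM over the mean of the 3, the median deviation in the narrowest of 4 equal groups of genes (2152 genes, up to 2847 bases) was 0.05 in replicate 2 and -0.05 in replicate 3. In the widest group (2146 genes, from 6683 bases) it was -0.07 in replicate 2 and 0.06 in replicate 3. Replicate 1 was at 0.00 and -0.01. Among 118 genes wider than 16000 bases, in bins drawn after values had been seen, the medians were -0.05, -0.15 and 0.18, and 96 of the 118 were highest in replicate 3. The difference between the widest and the narrowest group was 0.11 in replicate 3 and -0.11 in replicate 2. It was 0.06 for replicate 3 with replicate 2 left out, when its deviation is taken from the mean of 2 libraries.

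**Figure D4:**
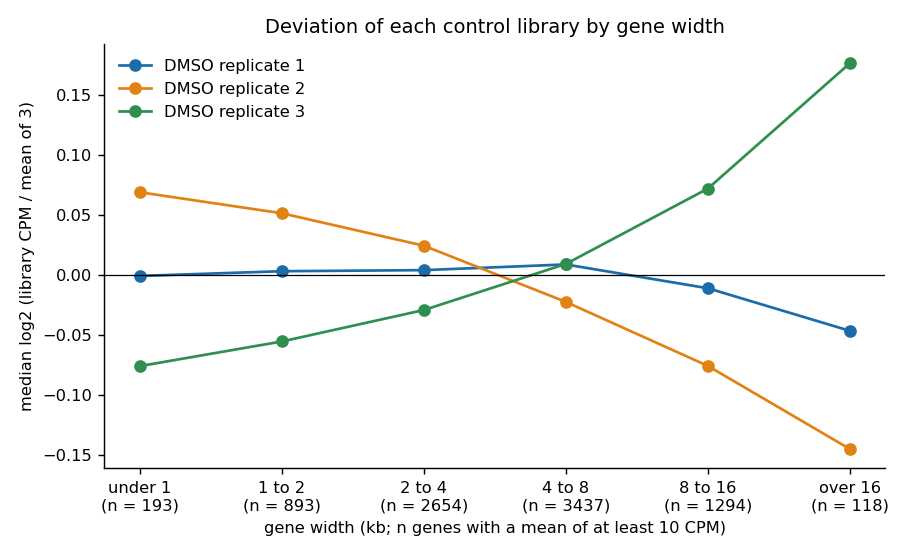
Median log2 deviation of each library from the mean of the 3, for genes of at least 10 CPM in 6 bins of gene width. Replicate 3 rises from -0.08 in the narrowest bin to 0.18 in the widest, replicate 2 falls from 0.07 to -0.15, and replicate 1 stays between -0.05 and 0.01.

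Some gene lists followed that trend and others did so less. In the narrowest of the 4 groups 65.5% of genes were highest in replicate 2 and 8.36% in replicate 3, and in the widest 64.8% were highest in replicate 3. Of 82 ribosomal protein genes, with a median width of 1736.5 bases, 63 were highest in replicate 2 and 2 in replicate 3. Of 94 respiratory chain genes, with a median width of 1525.5 bases, 76 were highest in replicate 2 and 3 in replicate 3. Of 33 receptor genes, with a median width of 6720 bases, 20 were highest in replicate 3. Goblet genes, with a median width of 2204.5 bases, were split, with 8 of 18 highest in replicate 2 and 6 in replicate 3. Of 15 Paneth genes, at 709 bases, 7 were highest in replicate 1 and 7 in replicate 2. These lists count members of at least 1 CPM, while the 4 groups hold genes of at least 10 CPM. Only 13 of the goblet and 7 of the Paneth genes had a mean of at least 10 CPM. After each library's trend with width was removed, an alternative added after seeing the data, 26 genes of at least 10 CPM had a CV above 20% in place of 76, and 24 of them were among the 76. The CV of Mki67 was then 15.6%, of Apob 14.8%, of Mgam 16.3% and of Lrp1 19.6%, while Fat1 at 20.5%, Hipk2 at 29.2% and Eppk1 at 32.1% stayed above 20%. The cause of the width pattern was not tested. With replicate 1 left out, which leaves the 2 libraries that differ most by width, the count of 76 became 147.

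A second set of variable transcripts, chosen after values had been seen, was highest in replicate 1. Rn45s, the ribosomal RNA precursor, had 2907, 1697 and 2290 CPM in replicates 1 to 3. Mir6236, annotated as a microRNA gene, had 42.5, 18.3 and 25.4 CPM, and Lars2, a mitochondrial leucyl-tRNA synthetase gene, 216, 119 and 161 CPM. Neat1, the nuclear RNA of paraspeckles, had 559, 307 and 394 CPM. All 4 had the order replicate 1, then 3, then 2. Malat1, another nuclear RNA, differed, with 110, 75.7 and 151 CPM and its highest value in replicate 3. The cause of this order was not tested.

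Transcripts of male germ cells also spread widely, in a list of 12 spermatid genes written after Prm1 had been seen. Prm1, a protamine that packs sperm DNA, had 7.81, 0.381 and 31.0 CPM, or 197, 7 and 667 counts, an 81.5-fold range. Prm2 had 4.79, 0.272 and 16.8 CPM, and the transition protein Tnp2 3.41, 0.163 and 12.9 CPM. Akap4, a scaffold of the sperm tail, had 2.54, 0.217 and 13.2 CPM. Of the 12 genes 11 had the order replicate 3, then 1, then 2, an order shared by 21.5% of all genes of at least 1 CPM. Since the list was written with the values of Prm1 in view and only 2 of its members reached 1 CPM in all 3 libraries, the count is a description. Their summed level was 29.6, 8.48 and 105.0 CPM. Ldhc, the germ cell lactate dehydrogenase, was the exception, at 1.07, 3.59 and 2.05 CPM.

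A list of 16 genes of meiotic germ cells, written later still, ran differently. It summed to 3.61, 14.6 and 3.44 CPM in replicates 1 to 3. Of its 15 members with a count, 12 were highest in replicate 2. Over all genes of at least 1 CPM, 34.9961% were highest in that replicate. Only 3 of the 16 had a mean of at least 1 CPM, and these counts too are a description of a list written with values in view. Hspa2, a chaperone of spermatocytes, had 1.15, 3.91 and 0.698 CPM. Tdrd6, a component of germ cell granules, had 0.594, 3.10 and 0.0930 CPM, which is 15, 57 and 2 counts. Each library thus held low counts of germ cell transcripts. The spermatid sum was highest in replicate 3 and the meiotic sum in replicate 2. In all, 33 genes of at least 1 CPM had a CV above 100%, 30 of them highest in replicate 3, and 7 of the 33 are in the spermatid list. Among genes of at least 10 CPM, 8.36% in the narrowest width group and 64.8% in the widest were highest in replicate 3. The source of the reads of these 33 genes and of the germ cell lists was not tested. Leaving out the 12 spermatid genes changed the count of genes with a CV above 20% from 717 to 706.

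**Figure D5:**
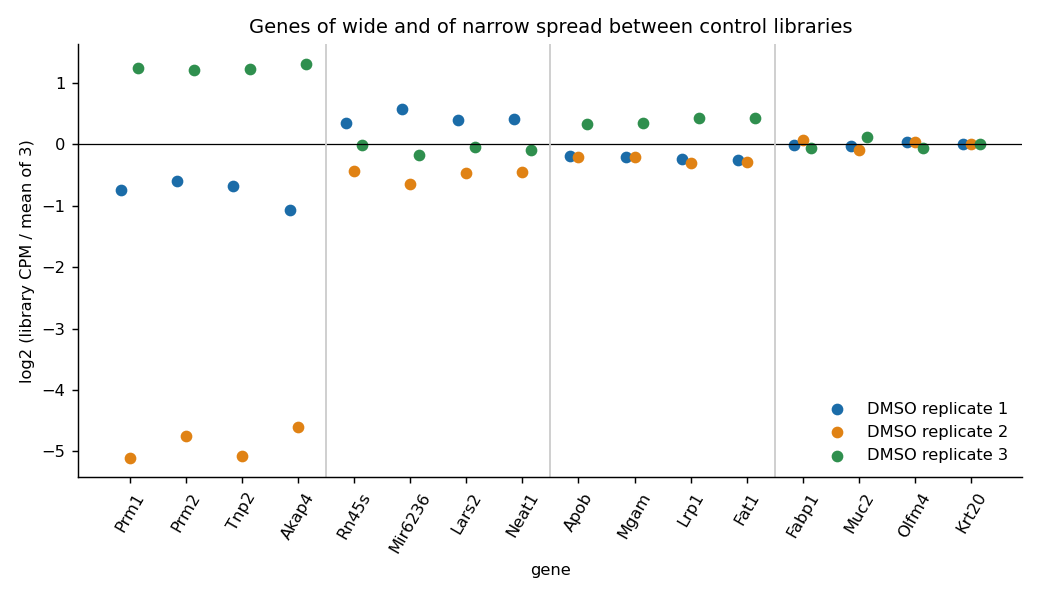
Log2 of each library's CPM over the mean of the 3 for 16 genes in 4 blocks. The blocks are spermatid genes, ribosomal RNA rows with Lars2 and Neat1, very wide genes, and Fabp1, Muc2, Olfm4 and Krt20. Replicate 3 is highest in the first and the third block, replicate 1 in the second, and the libraries lie closer together in the last than in the others.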

How the data were processed

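The authors deposited 1 table of whole-number read counts per gene for 6 libraries. Each row also holds a symbol, an Entrez number and the width of the gene in bases. Only the 3 columns of the DMSO libraries were used, and no treatment comparison was made. Per the submitters' processing notes the build was mm10 and edgeR was used. The aligner, the counting tool, the strand setting and the definition of width were not given in the sources used here, so that overlapping and antisense genes cannot be told apart with certainty. The table has 24594 rows, 15 of them without a symbol, and 24570 were found in the RefSeq annotation of GRCm38.p6, which gave 1-based positions.

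CPM was computed on library totals (18395427 to 25238809 counts) and RPKM as CPM per 1000 bases of width. CV is the SD over the mean of CPM of the 3 libraries, and the counting CV is that of a Poisson variable at the same level. Nothing was tested, since there is 1 group. TMM factors and dispersions came from edgeR 4.0.16, size factors from DESeq2 1.42.0 (R 4.3.3), and the width trend from a lowess fit in statsmodels 0.14.6. The CV calculation was tested on simulated data.

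Members and gene lists were chosen with earlier results of these data known. Named genes were the 6 markers, the 20 highest by RPKM and by CPM, up to 4 members per list with the highest RPKM and members with no count, and the 10 genes of highest CV (at least 10 CPM) and of lowest CV (at least 100 CPM). Some genes that this rule names are not reported here. Every other gene in the text was picked with its values in view.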

Additional observations from a re-analysis of the deposited data

How the results depend on the processing

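Of 81 alternatives, 69 left a value within its spread or a count within 1.5 times, and 12 moved it. Most of these values are counts, shares, levels or CVs, which cannot be negative and so had no direction to change. By summed RPKM in place of counts the 10 leading genes held 12.7% and the 100 leading genes 33.3%. The median CV was 9.29% with no filter beyond 1 count and 3.30% after counting error was subtracted. The number of genes with a CV above 20% was 5883 with no filter, 76 at 10 CPM or more, 473 after counting error was subtracted and 242 by edgeR's tagwise dispersion, and 2678 genes passed a threshold of 10%. The share of the 100 highest promoters with a TATA string was 7.78% for TATAA, under the 7.95% of genes with no count, where the first search had given 12.2% against 6.69%. At 10 CPM or more the count of 76 was 26 with the width trend removed and 62 to 147 when 1 library was left out. With 1 library left out, 11338 to 11347 genes were detected, 635 to 831 had a CV above 20% and the median CV was 4.03% to 5.42%. The width difference of replicate 3 was 0.11 under TMM and DESeq2 scaling. With replicate 2 left out it was 0.06, counted as unmoved only because the spread set for it was 0.11. No paired analysis was possible because 1 group is described and no result comes from a test. Depth limits genes near the 3-count floor of 0.119 to 0.163 CPM per library, where counting error alone gives a CV above 20%.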

Other observations

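Transcripts of the Y chromosome were found in all 3 libraries. Eif2s3y, a translation initiation factor gene, had 66.3, 65.6 and 64.4 CPM in replicates 1 to 3, and the helicase gene Ddx3y had 51.9, 42.2 and 47.7 CPM. Kdm5d and Uty, both histone demethylase genes, had 27.2 and 21.7 CPM on average. Xist, the RNA of the inactive X chromosome, had 0.396, 0.544 and 0.233 CPM. The CV of the 4 Y-linked genes ran from 1.45% for Eif2s3y to 10.3% for Ddx3y, and that of Xist, which rests on 5 to 10 counts, was 39.8%.

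Genes of cell death and the p53 response were detected in full, 15 of 15 in every library, with a sum of 1176 ± 13.3 CPM (SD, n = 3). Bak1, an executor of mitochondrial apoptosis, stood at 83.8 RPKM, Cdkn1a at 65.1 RPKM and Pmaip1, a BH3-only protein, at 54.0 RPKM. Genes of other organs were mostly absent: apart from Krt20, 3 of that list had a mean of at least 1 CPM, Ttr at 10.5 CPM, Cela1 at 4.97 CPM and Tff1 at 2.67 CPM, and the gastric and pancreatic genes Muc5ac, Atp4b, Prss1 and Cpa1 had no count.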
